A study of Mus musculus with 12 samples.

Results

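Genes of matrix turnover were followed in mouse bone marrow-derived macrophages (BMDMs) exposed to immune complexes and to the bromodomain inhibitor I-BET151 (iBET). The 9 genes are 6 matrix metalloproteinases (Mmp8, Mmp9, Mmp12, Mmp13, Mmp14 and Mmp19) and 3 tissue inhibitors of metalloproteinases (Timp1, Timp2 and Timp3), taken by symbol from the 24421 symbols of the count table, which holds 27 Mmp and Timp genes in all. RNA came from BMDMs of C57BL/6 mice grown for 5 days with M-CSF at 100 ng/mL, the growth factor that drives macrophage differentiation, with a medium change on day 3. All 4 groups received ovalbumin for 4 hours, either free (Ova) or bound by anti-ovalbumin IgG as an immune complex (IC), and either iBET at 5.0 µM or its solvent DMSO. That gives DMSO Ova and DMSO IC as the solvent groups and iBET Ova and iBET IC as the drug groups, of 3 libraries each, and mice A, B and C all supplied 1 library to every group. Whether the drug preceded the stimulus is uncertain, since the labels give both together and the study's text puts iBET first. The measurement was bulk RNA sequencing of cells that had differentiated in a dish.

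Metalloproteinases are zinc endopeptidases that cut collagens, elastin, proteoglycans and many cell surface proteins. Most are made as inactive precursors, released from the cell and activated by other proteases such as plasmin, and TIMPs bind the active site and block it. Macrophages use them to move through tissue and to remodel damaged matrix, and iBET displaces the BET proteins, readers of acetylated histones, from chromatin. Only RNA was measured here, so neither protease protein nor activity is described.

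Total counts ran from 7.55 to 17.4 M (mega-counts) per library. The DMSO Ova library of mouse A stood apart, because 77.4% of its counts fell on the ribosomal RNA gene Rn45s and 1.77 M counts were left for other genes, whereas Rn45s took 1.41 to 7.83% and left 7.25 to 16.9 M counts in the other 11 libraries. Levels are given as CPM, counts scaled to a common library size with TMM factors, in which 1 count equals 0.0534 to 0.514 CPM. The macrophage label fitted the markers, with all 9 macrophage genes expressed and a summed level of 6571 to 9322 CPM. Markers of fibroblasts and stromal cells, the usual makers of Mmp2, Timp3 and collagen in tissue, summed to at most 3.08 CPM and none of 9 passed the filter on low counts.

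Promoters are shown first for 3 members, because Mmp13 and Mmp14 both had lower RNA with iBET in IC-treated cells whereas Mmp12, the expressed neighbour of Mmp13 on chromosome 9, had no called change. RefSeq promoters on GRCm38.p6 were found for 7 of the 9 members, all but Mmp9 and Mmp19. The 250 bases before each start site were searched on both strands for 4 motifs: AP-1 (TGANTCA), the TATA box (TATAAA), NF-kB (GGG, any 2 bases, TTTCC) and ETS/PEA3 (AGGAAGT). AP-1, the Fos and Jun dimer, is a textbook regulator of collagenase genes. Capitals mark the matches. The window of Mmp13 is chr9:7272264-7272513, that of the second listed start of Mmp12 is chr9:7347124-7347373, and that of Mmp14 is chr14:54431348-54431597, all on the plus strand and with 0 annotated exon bases of their gene inside.
Mmp13: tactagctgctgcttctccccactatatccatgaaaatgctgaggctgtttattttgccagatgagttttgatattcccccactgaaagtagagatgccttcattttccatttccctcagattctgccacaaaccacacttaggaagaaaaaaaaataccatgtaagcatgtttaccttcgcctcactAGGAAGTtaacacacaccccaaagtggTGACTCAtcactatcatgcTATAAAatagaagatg
Mmp12: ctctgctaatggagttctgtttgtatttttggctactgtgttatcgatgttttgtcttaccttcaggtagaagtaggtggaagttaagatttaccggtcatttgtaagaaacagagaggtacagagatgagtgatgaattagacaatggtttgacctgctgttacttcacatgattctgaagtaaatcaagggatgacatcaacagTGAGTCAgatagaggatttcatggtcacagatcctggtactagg
Mmp14: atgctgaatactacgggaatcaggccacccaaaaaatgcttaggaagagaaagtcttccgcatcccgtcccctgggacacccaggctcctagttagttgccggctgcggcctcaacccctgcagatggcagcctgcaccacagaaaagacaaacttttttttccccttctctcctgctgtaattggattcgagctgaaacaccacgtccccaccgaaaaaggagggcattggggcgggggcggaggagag

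With -1 as the base before the start site, the Mmp13 window held an ETS/PEA3 match that began at -62, an AP-1 match at -35 and a TATA match at -16. The Mmp12 window, which belongs to a start site inside the annotated gene, held an AP-1 match that began at -44. The window of its first listed start, not printed, held no AP-1 match and 16 exon bases. No letters of the 4 motifs were found in the Mmp14 window. Over all 32851 RefSeq promoters searched in the same way, 6.75% held the AP-1 letters, 12.4% the TATA letters, 7.69% the ETS/PEA3 letters and 1.41% the NF-kB letters. Of the other members, Mmp8, the first listed start of Mmp12 and Timp1 each held 1 ETS/PEA3 match, and none of the 7 held the NF-kB letters. These are matches of letters and were not tested as binding sites.

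Compared per kilobase of exon, so that genes of different length can be set side by side, Timp2 was the most abundant member in each of the 12 libraries and Mmp12 and Mmp13 held the next places. In DMSO Ova, Timp2 averaged 37.6 ± 4.81 CPM per kb (SD, n = 3), above 90.6% of the 11383 tested genes with a length. Mmp12 at 13.6 ± 3.50 and Mmp13 at 12.3 ± 1.36 CPM per kb did not differ beyond their spread. That closeness depends on the length used, since with the longest transcript as length the means were 21.9 and 12.3. Mmp8 at 3.49 ± 1.19 and Mmp19 at 2.94 ± 0.818 CPM per kb formed the next pair, again within their spread. Mmp14 (1.06 ± 0.682), Timp1 (0.873 ± 0.375) and Mmp9 (0.545 ± 0.223 CPM per kb) were the lowest of the tested members, with overlapping spreads. Mmp9, a gelatinase, was thus detected in every library but near the bottom of the expressed genes. Timp3, a TIMP held in the matrix, had 4 counts over all 12 libraries, 2 of them in DMSO Ova, 2 in iBET Ova and 0 in both IC groups, and was not tested.

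**Figure D1:**
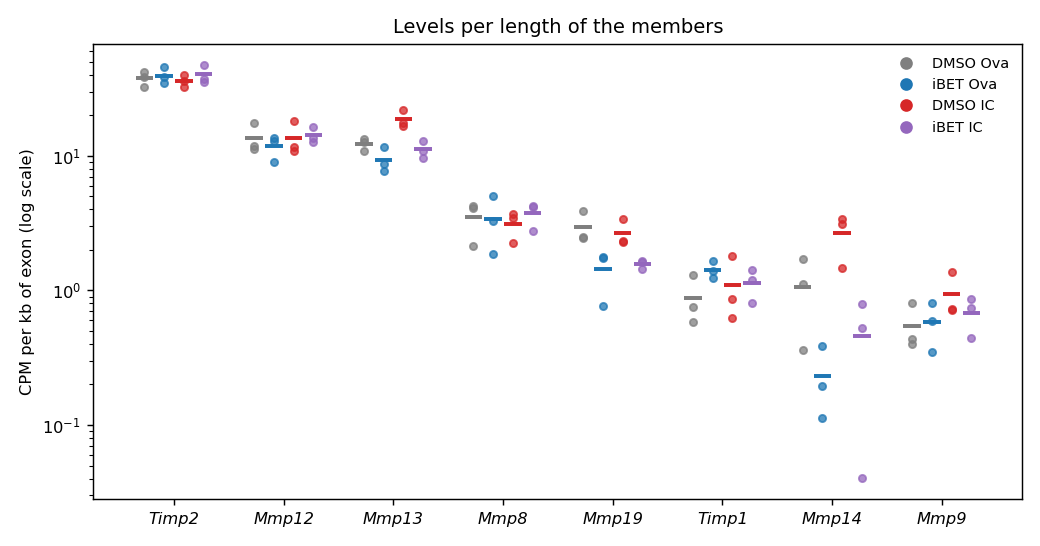
CPM per kb of exon (log axis) for the 8 tested members, ordered by mean, with 1 point per library and a bar at the mean of each group of 3. Timp2 lies near 40 in all groups and Mmp14 spans the widest range, from a mean of 2.66 in DMSO IC to 0.232 in iBET Ova.

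The 4 comparisons and the interaction between them were fitted in 1 edgeR quasi-likelihood model over the 12 libraries, and a gene was called at a Benjamini-Hochberg adjusted p under 0.05 over all 11468 genes tested. With iBET, Mmp19 fell in Ova-treated cells and Mmp13 and Mmp14 fell in IC-treated cells, and no member rose. IC against Ova gave no called member with either DMSO or iBET. In numbers, 1 of 8 tested members was called for iBET against DMSO in Ova, where 31.3% of all genes were called (14.2% lower), and 2 of 8 in IC, where 34.8% were called (15.8% lower). Read against these shares, 1 or 2 of 8 does not set the members apart from genes at large. For IC against Ova, 0 of 8 were called in DMSO, where 1.22% of genes were, and 0 of 8 in iBET, where 0.349% were. In DMSO, 2 members (Mmp13 and Mmp14) had an unadjusted p under 0.05, as did 11.7% of all genes, and in iBET none had, beside 7.5% of all genes. DESeq2 also called 0 in both. The interaction, which is the IC difference in iBET minus that in DMSO, was called for 0 of 8 members and for 0% of all genes, and at an unadjusted p under 0.05 for none of the members and 2.55% of genes. DESeq2 called 4 genes for it, none of them a member.

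The same 3 mice gave all groups, and a fit with the mouse as a block used that pairing. It called Mmp13, Mmp14 and Mmp19 lower with iBET in both Ova (38.3% of all genes called) and IC (42.1%), and it called Mmp13 and Mmp14 higher with IC in DMSO, where 2.75% of all genes were called. The block and the unblocked fit gave the same directions for these genes. All calls of members with iBET depended on mouse B in the unblocked fit: without its 4 libraries 0 of 8 members were called in Ova and 0 of 8 in IC, while the share of all genes called fell to 11.4% and 15.4%.

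**Figure D2:**
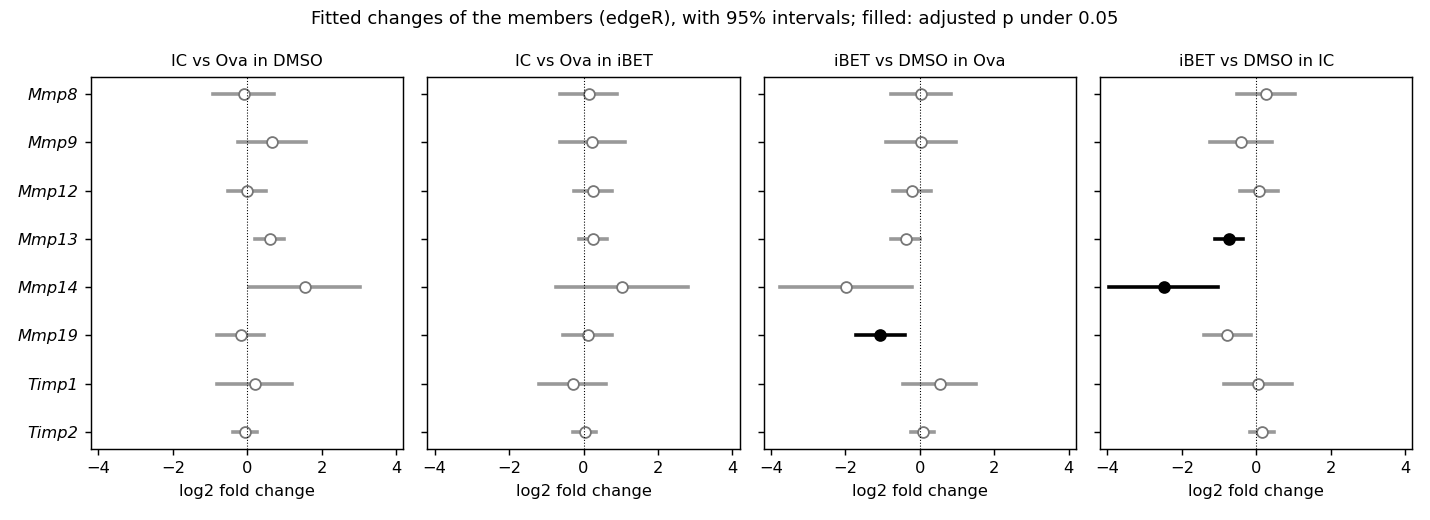
Fitted log2 fold changes of the 8 tested members in the 4 comparisons (horizontal axis), each with its 95% interval, and filled where the adjusted p was under 0.05. The filled points are Mmp19 at -1.07 for iBET in Ova, and Mmp13 at -0.74 and Mmp14 at -2.49 for iBET in IC.

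Mmp13 (ENSMUSG00000050578, chr9:7272514-7283331 on GRCm38, plus strand) encodes collagenase 3, which cuts fibrillar collagen. In DMSO Ova it stood at 33.9, 35.9 and 28.8 CPM in mice A, B and C, and in DMSO IC at 46.8, 58.6 and 44.2 CPM. In iBET Ova it stood at 31.3, 23.2 and 20.8 CPM, and in iBET IC at 34.6, 29.2 and 25.6 CPM. The 3 DMSO IC libraries were thus the highest of the 12, and the iBET IC libraries overlapped those of DMSO Ova.

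The IC difference of Mmp13 in DMSO was 0.61 on the log2 scale (SE 0.18), positive in 3 of 3 mice and with no overlap between groups, as for 7.8% of all genes in that direction. Its adjusted p was 0.148 in edgeR without the block and 0.0376 with it, where the difference was 0.59. With iBET present the IC difference was 0.25 (SE 0.17, edgeR adjusted p = 0.821). In IC-treated cells Mmp13 fell by 0.74 on the log2 scale with iBET (SE 0.17, edgeR adjusted p = 0.00571), in 3 of 3 mice and with no overlap between groups, as for 22.3% of all genes in that direction. Leaving mouse B out raised that adjusted p to 0.135. In Ova-treated cells the iBET difference was -0.38 (SE 0.18, adjusted p = 0.126), and -0.41 with the block (adjusted p = 0.0350). The interaction was -0.35 (SE 0.25, adjusted p = 1.00). Its value was -0.32, -0.38 and -0.31 in the 3 mice, so the mice had the same sign, but a difference between the 2 IC responses was not shown.

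Mmp8 (ENSMUSG00000005800, chr9:7558456-7568485, plus strand) encodes the collagenase of neutrophil granules. Its level was 10.3, 9.97 and 5.14 CPM in DMSO Ova and 12.2, 7.94 and 4.51 CPM in iBET Ova. It was 8.42, 8.91 and 5.43 CPM in DMSO IC and 10.3, 10.2 and 6.71 CPM in iBET IC. The groups overlapped in every comparison and mouse C was the lowest in all 4 groups. The fitted changes lay between -0.10 and 0.27 on the log2 scale and none was called, with a 95% interval of -0.50 to 1.04 for iBET against DMSO in IC. Summed markers of neutrophils and their precursors were lowest in mouse A in all 4 groups (10.3 to 17.8 CPM). They were highest in mouse C in all 4 groups (44.8 to 56.6 CPM). The mouse with the least Mmp8 thus had the most of these markers, and which cells made Mmp8 was not tested. Of that list, 5 of 11 genes were tested and 0 were called in any comparison.

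Mmp14 (ENSMUSG00000000957, chr14:54431612-54445364, plus strand) encodes MT1-MMP, a protease anchored in the cell membrane that cuts collagen and activates pro-MMP2 with the help of TIMP2. Mmp2 itself had 1 count in DMSO Ova, 1 in DMSO IC and 0 in each iBET group. Mmp14 showed the widest spread of the members. In DMSO Ova it stood at 10.3, 6.59 and 2.16 CPM in mice A, B and C, and in DMSO IC at 20.2, 18.6 and 8.77 CPM. In iBET Ova it stood at 1.16, 2.32 and 0.677 CPM, and in iBET IC it stood at 3.15, 4.75 and 0.240 CPM. The iBET IC libraries lay below all 3 DMSO IC libraries, and within every mouse the iBET value was below the DMSO value. The lowest value rests on 2 counts and that of mouse A in DMSO Ova on 20.

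In IC-treated cells Mmp14 fell by 2.49 on the log2 scale with iBET (SE 0.67, edgeR adjusted p = 0.0140), in 3 of 3 mice. The call was lost without mouse A (adjusted p = 0.193), without mouse B (0.0888) and without mouse A's DMSO IC library (0.0528), while the change stayed at -2.31 or lower in these 3 fits. In Ova-treated cells the difference was -1.98 (SE 0.81, adjusted p = 0.0860) with overlapping groups, and with the mouse as a block it was -2.05 (SE 0.44, adjusted p = 0.00349). The IC difference in DMSO was 1.55 (SE 0.68, adjusted p = 0.409), positive in 3 of 3 mice. With the block it was 1.58 (SE 0.34, adjusted p = 0.0319). In iBET the IC difference was 1.03 (SE 0.80, adjusted p = 0.847), positive in 2 of 3 mice. The interaction was -0.51 (SE 1.07, adjusted p = 1.00), with a 95% interval of -2.86 to 1.84.

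Mmp19 (ENSMUSG00000025355, chr10:128790910-128800824, plus strand) encodes a secreted protease of basement membrane proteins. Its level was 8.73, 13.7 and 8.70 CPM in DMSO Ova and 6.17, 6.29 and 2.71 CPM in iBET Ova. It was 12.0, 8.03 and 8.20 CPM in DMSO IC and 5.07, 5.81 and 5.75 CPM in iBET IC. Every iBET library lay below every DMSO library, whichever stimulus was given. In Ova-treated cells Mmp19 fell by 1.07 on the log2 scale with iBET (SE 0.30, edgeR adjusted p = 0.0179), with no overlap between groups, as for 19.9% of all genes in that direction. The call was lost without mouse B (0.173), without mouse C (0.0558) and without mouse B's DMSO Ova library (0.116). In IC-treated cells the difference was -0.78 (SE 0.29, adjusted p = 0.0570), and with the block -0.79 (adjusted p = 0.0231). IC against Ova gave -0.18 in DMSO and 0.11 in iBET, with adjusted p of 0.917 and 0.973.

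The exons of Mmp19 overlap those of genes on the opposite strand, Tmem198b and Gm47093, over 1001 bases, and the strand setting of the counting is not given in the sources used here. Tmem198b itself fell with iBET, by 1.49 on the log2 scale in Ova (edgeR adjusted p = 0.00662) and by 1.03 in IC (0.0317). Its level was 4.11 to 8.05 CPM in DMSO Ova and 1.47 to 3.16 CPM in iBET Ova. The kit marks strand, but without that setting it is not known whether reads of the shared stretch were kept apart between the genes, and the part of Tmem198b in the Mmp19 result was not tested.

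**Figure D3:**
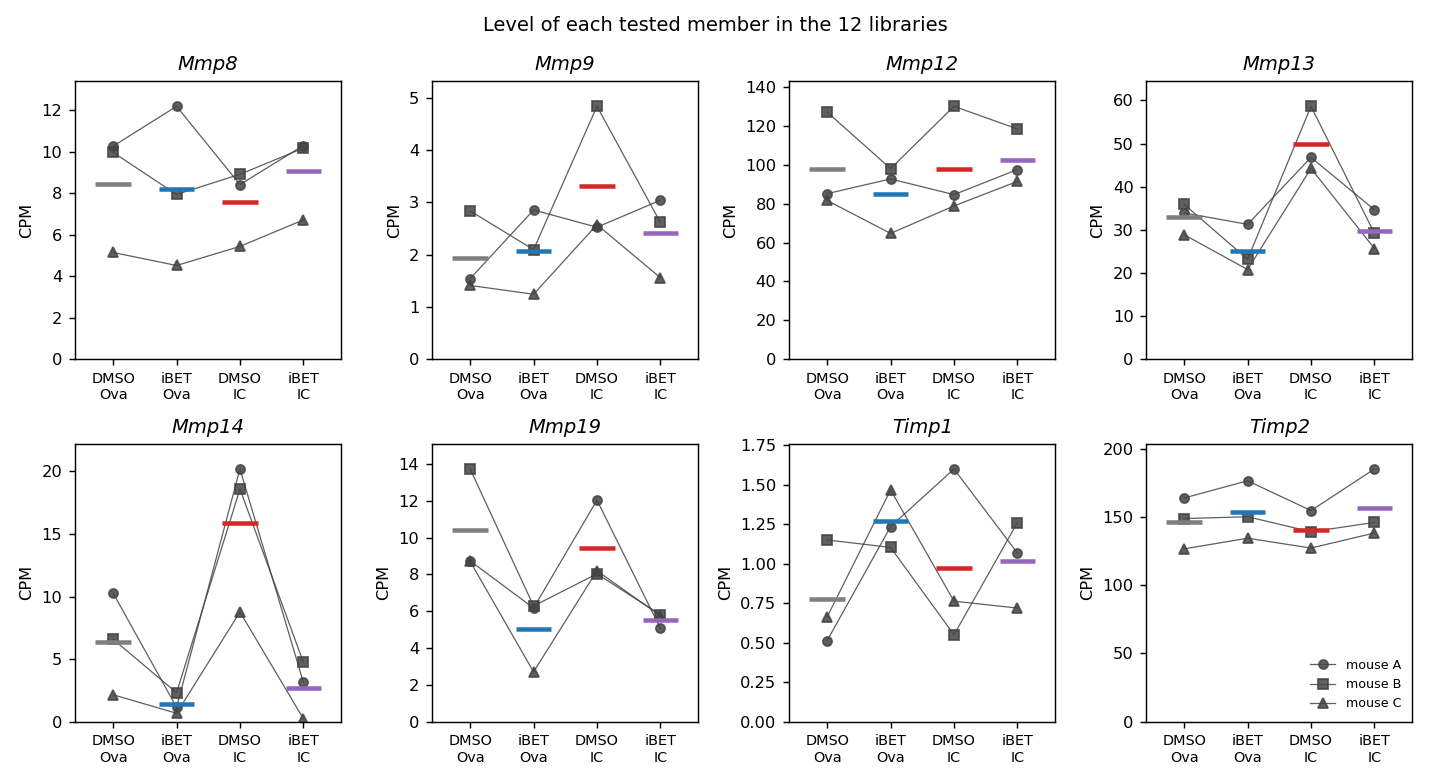
CPM (vertical axes from 0) of the 8 tested members in the 12 libraries, with points of the same mouse joined and a coloured bar at each group mean. Mmp13 and Mmp14 peak in DMSO IC at means of 49.9 and 15.9 CPM and stand at 29.8 and 2.71 CPM in iBET IC, while Timp2 stays between 127 and 185 CPM.

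Mmp12 (ENSMUSG00000049723, chr9:7344381-7369499, plus strand) encodes macrophage elastase, the elastin-cutting protease for which macrophages are known. It was 85.3, 127 and 81.7 CPM in DMSO Ova and 92.8, 98.2 and 64.8 CPM in iBET Ova. It was 84.7, 130 and 78.9 CPM in DMSO IC and 97.7, 119 and 91.6 CPM in iBET IC. Mouse B was the highest and mouse C the lowest in all 4 groups, and the groups overlapped in every comparison. IC against Ova in DMSO gave -0.01 on the log2 scale with a 95% interval of -0.53 to 0.50, and iBET against DMSO in IC gave 0.07 with an interval of -0.44 to 0.58. An exon overlap of 157 bases with Mmp1b on the other strand carried little, since Mmp1b had 1 count in the 12 libraries.

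Mmp9 (ENSMUSG00000017737, chr2:164940780-164955850, plus strand), the gelatinase B gene, stood at 1.54, 2.84 and 1.41 CPM in DMSO Ova and 2.86, 2.10 and 1.24 CPM in iBET Ova. It stood at 2.52, 4.84 and 2.57 CPM in DMSO IC and 3.04, 2.62 and 1.56 CPM in iBET IC. In DMSO the IC value was above the Ova value in 3 of 3 mice, but the groups overlapped and the difference of 0.67 on the log2 scale was not called (SE 0.42, edgeR adjusted p = 0.631). The iBET difference in IC was -0.40 (SE 0.39, adjusted p = 0.444) and was negative in 2 of 3 mice.

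Timp2 (ENSMUSG00000017466, chr11:118301069-118355740, minus strand), a broad inhibitor that also takes part in pro-MMP2 activation, was the steadiest member. It stood at 164, 149 and 127 CPM in DMSO Ova and 176, 150 and 134 CPM in iBET Ova. It stood at 155, 139 and 127 CPM in DMSO IC and 185, 146 and 138 CPM in iBET IC. Mice were ordered A, B, C from high to low in all 4 groups, and the groups overlapped in every comparison. The 4 fitted changes lay between -0.06 and 0.16 on the log2 scale, and their 95% intervals between -0.37 and 0.47, so changes larger than these limits lay outside the intervals in this design.

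Timp1 (ENSMUSG00000001131, chrX:20870166-20874735, plus strand), the inducible inhibitor of many inflamed tissues, was near 1 CPM. It stood at 0.514, 1.15 and 0.663 CPM in DMSO Ova and 1.23, 1.10 and 1.47 CPM in iBET Ova. It stood at 1.60, 0.550 and 0.762 CPM in DMSO IC and 1.07, 1.26 and 0.719 CPM in iBET IC. No comparison was called, and the interval of iBET against DMSO in Ova, -0.45 to 1.52 around 0.54, shows how little this depth limits its change. Timp1 lies inside Syn1, a gene of the opposite strand with 0 shared exon bases, and Syn1 rose with iBET by 0.92 on the log2 scale in Ova (edgeR adjusted p = 0.000595) and by 0.69 in IC (0.00266). Whether reads of Syn1 entered the Timp1 counts was not tested.

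Summed per length, the 2 tested inhibitors and the 6 metalloproteinases were of similar abundance, and Timp2 made up 95.4 to 98.6% of the inhibitor sum. The Timp to Mmp ratio was 1.28, 0.965 and 1.21 in DMSO Ova and 1.45, 1.41 and 1.82 in iBET Ova for mice A, B and C. It was 1.03, 0.721 and 0.979 in DMSO IC and 1.45, 1.12 and 1.34 in iBET IC. The ratio was therefore higher with iBET than with DMSO in each mouse under both stimuli, and lower with IC than with Ova in each mouse in DMSO. Group means were 1.15 ± 0.166 (SD, n = 3) in DMSO Ova, 1.56 ± 0.231 in iBET Ova, 0.911 ± 0.166 in DMSO IC and 1.30 ± 0.168 in iBET IC. The Mmp sum moved most, from 41.6 ± 8.17 CPM per kb in DMSO IC to 31.8 ± 4.07 in iBET IC, while the Timp sum was 37.1 ± 4.05 and 41.3 ± 6.55. The ratio is a description over genes chosen by family and was given no test, and with each gene's longest transcript as its length it became 0.948, 1.27, 0.761 and 1.06 in the same order of groups. In bulk RNA, fewer cells of a type and less RNA per cell cannot be told apart for any of these levels.

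**Figure D4:**
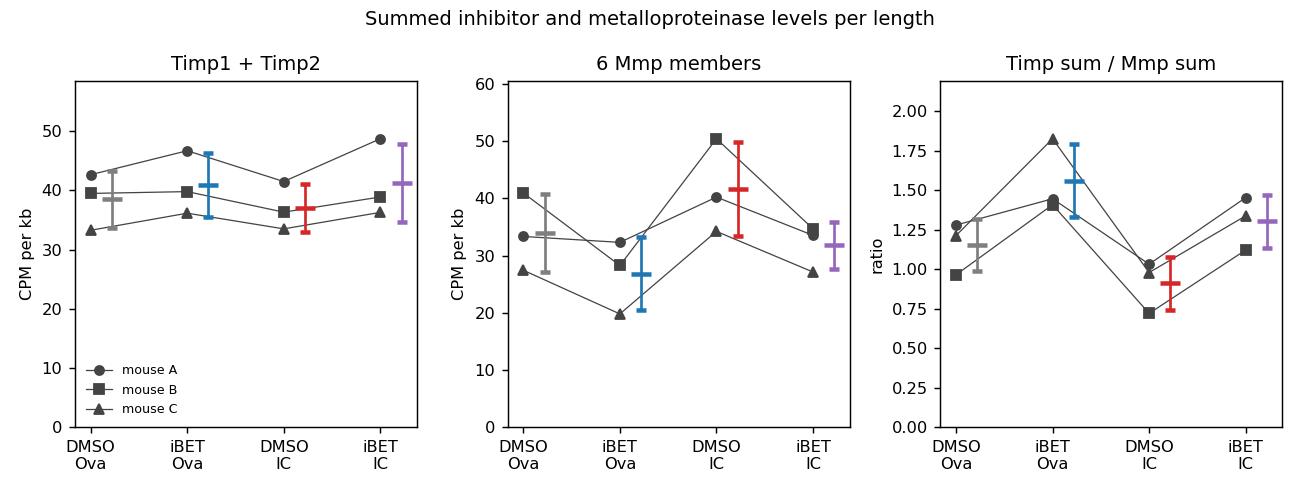
Summed CPM per kb of Timp1 and Timp2, of the 6 metalloproteinases, and their ratio in the 12 libraries, with the libraries of each mouse joined and the group mean ± SD beside them. The mean ratio is lowest in DMSO IC (libraries at 0.721 to 1.03) and highest in iBET Ova (1.41 to 1.82).

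Mmp13, Mmp12 and Mmp8 belong to a cluster of 10 metalloproteinase genes that spans 427 kb of chromosome 9. Of its genes, 5 had under 10 counts in all 12 libraries together, and 3 of those (Mmp1a, Mmp20 and Mmp7) were at 0. Mmp13 and Mmp12, which start 71.9 kb apart, averaged 9.37 to 18.7 and 11.8 to 14.2 CPM per kb over the groups, and Mmp8 averaged 3.13 to 3.74. Mmp27, with group means of at most 1.08 CPM per kb, was not called in any comparison. Mmp10, with group means of at most 0.555 CPM per kb, passed the filter on low counts through libraries of the DMSO groups, so no test is given for it. Mmp10 stood at 0.497 to 0.920 CPM in DMSO Ova (19 counts) and 0.926 to 0.990 CPM in DMSO IC (30 counts). It stood at 0.110 to 0.617 CPM in iBET Ova (11 counts) and 0.120 to 0.534 CPM in iBET IC (15 counts). At these low counts its DMSO IC libraries lay above those of DMSO Ova, as for 7.8% of all genes in that direction. Its iBET IC libraries lay below those of DMSO IC, as for 22.3% of all genes. Among Mmp13, Mmp12, Mmp8 and Mmp27, only Mmp13 was called in these fits, and whether its change differed from that of its neighbours was not tested.

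**Figure D5:**
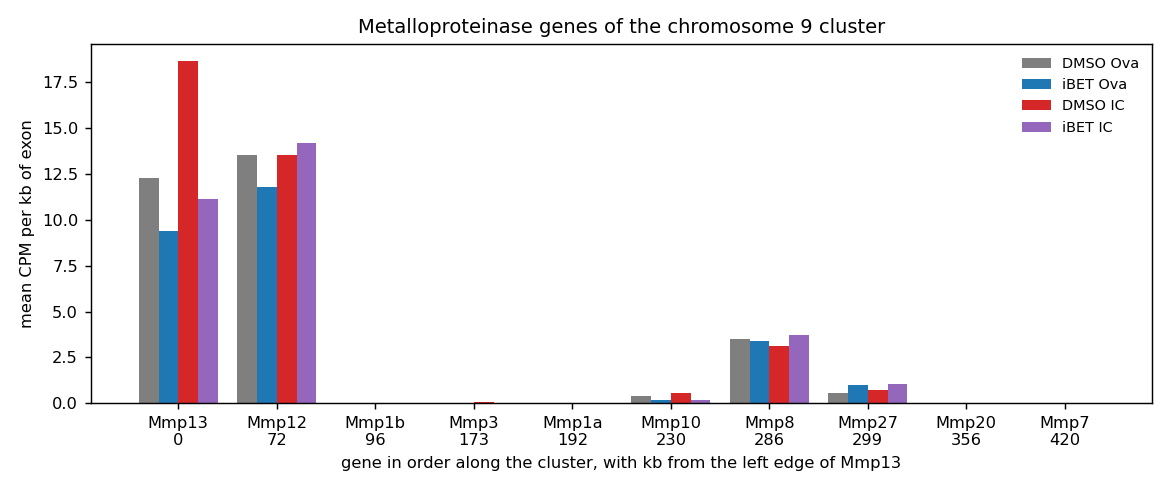
Mean CPM per kb of exon in each of the 4 groups for the 10 metalloproteinase genes of the chromosome 9 cluster, in order, with the distance in kb of each gene's left edge from that of Mmp13. Mmp13, Mmp12 and Mmp8 carry nearly all of the signal, and the bar of Mmp13 in DMSO IC, at 18.7, is the tallest. The order of Mmp13 and Mmp12 depends on the length used, since with the longest transcript as length Mmp12 averages 21.9 in DMSO IC.

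For each called member, the gene with the nearest pattern was the one with the smallest root mean square distance between log2 CPM profiles centred over the 12 libraries, among 9422 genes with a mean count of at least 50. For Mmp13 it was Dusp4, a phosphatase of MAP kinases, at a distance of 0.162 log2 units, against 0.412 for the spread of Mmp13 itself. The next genes were almost as near, at 0.164 and 0.168. For Mmp14 it was Rgs16, a regulator of G protein signalling, at 0.775 against 1.66, with the next genes at 0.831 and 0.832. For Mmp19 it was Zfp74, at 0.251 against 0.569, with the next genes at 0.255 and 0.263.

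Among genes that activate, inhibit or clear metalloproteinases, Plau fell with iBET under both stimuli. Of 17 such genes 9 were tested. Plau, which encodes urokinase and so the main activator of plasminogen, stood at 561, 737 and 707 CPM in DMSO Ova and at 124, 111 and 115 CPM in iBET Ova. It stood at 687, 684 and 770 CPM in DMSO IC and at 118, 111 and 123 CPM in iBET IC, so that no iBET library came near a DMSO library. Plau fell by 2.52 on the log2 scale in Ova (SE 0.12, edgeR adjusted p = 1.39e-07) and by 2.61 in IC (SE 0.12, adjusted p = 6.64e-08). Pcsk7, a proprotein convertase, rose by 0.46 in IC (adjusted p = 0.0161), and IC against Ova left all 9 uncalled. The median change of the list was -0.09 in Ova and -0.15 in IC, beside 0.02 and -0.004 over all genes.

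Of 15 ADAM and ADAMTS proteases, which shed cell surface proteins or cut proteoglycans, 7 were tested. With iBET, Adam9 rose by 0.28 on the log2 scale in Ova (edgeR adjusted p = 0.0169). Adam19, named here after its values were seen, averaged 3.28 CPM (76 counts) in DMSO Ova and 0.734 CPM (24 counts) in iBET Ova. It averaged 2.15 CPM (68 counts) in DMSO IC and 0.284 CPM (11 counts) in iBET IC. It passed the filter on low counts mainly through libraries of the DMSO groups, so no test is given for it. Adam10 and Adam17, the main sheddases, were not called. Of 12 matrix proteins that macrophages make, 9 were tested, 3 of which fell with iBET in Ova and 2 in IC, beside 14.2% and 15.8% of all genes called lower. Thbs1, the matrix protein thrombospondin 1, fell by 1.31 in Ova (adjusted p = 0.0281) and by 1.91 in IC (adjusted p = 0.00351). Tgfbi, a collagen-binding adhesion protein, fell by 0.66 in Ova (adjusted p = 0.00406) and by 0.70 in IC (adjusted p = 0.00251), and Col4a1, a chain of basement membrane collagen, fell by 1.18 in Ova (adjusted p = 0.0227). Neither list had a called gene between IC and Ova.

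Markers of other cells were set beside these results. Of 8 osteoclast genes 6 were tested, and their sum was 86.5 to 91.4 CPM in DMSO Ova, 69.0 to 79.0 in iBET Ova, 78.4 to 88.4 in DMSO IC and 61.5 to 74.0 in iBET IC. Calcr was at 0 in all 4 groups. Dcstamp fell with iBET under both stimuli, beside 14.2% of all genes called lower in Ova and 15.8% in IC. Ocstamp had 37 counts in DMSO Ova, 7 in iBET Ova, 57 in DMSO IC and 16 in iBET IC. It passed the filter on low counts through libraries of the DMSO groups, so no test is given for it. Of 5 endothelial genes 2 were tested, with sums of 19.0 to 21.2, 12.0 to 14.7, 24.1 to 27.4 and 12.6 to 16.7 CPM in the same order. Kdr carried nearly all of that sum and fell with iBET under both stimuli, while Emcn was at 0 in all 4 groups. Pecam1 averaged at most 0.552 CPM, in iBET Ova, and Cdh5 at most 1.12 CPM, in DMSO IC, so the order of groups in the sum is that of Kdr. That order resembled the order of Mmp13 and Mmp14. Whether endothelial cells were present, and their part in those results, was not tested.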

How the data were processed

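Per the labels, libraries were made from total RNA with a stranded kit, demultiplexed with CASAVA, checked with FastQC, trimmed with Trim Galore, aligned to mm10 with HISAT2 and counted with featureCounts. Annotation, strand setting and treatment of reads with several alignments are not given in the sources used here. The authors deposited 2 tables, gene counts and a normalized signal, which equalled the deposited counts divided by DESeq2 size factors (largest relative gap 4.89e-15).

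The count analysis used edgeR 4.0.16 in R 4.3.3, with filterByExpr (minimum count 10), TMM, and a robust quasi-likelihood fit with 1 term per group. SE is the absolute log2 fold change over the square root of F, and each mouse's change is taken from log2 CPM (prior count 2). P-values are two-sided. Intervals are at 95%. Tested on simulated data for iBET against DMSO in Ova (11398 genes), the fit recovered 66.7% of genes changed by 1 log2 unit and 90.9% of those changed by 2, with 10 false calls. The simulation changed only 200 genes and held no mouse effect, so these rates need not carry over to the real libraries. GENCODE vM21 gave positions and exon lengths for 24046 symbols (98.46%).

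The mouse pairs the libraries, per the labels. Deviations from group means correlated at -0.0725 to 0.542 over 18 pairs of the same mouse and at -0.499 to 0.271 over 36 pairs of different mice. Alternatives were DESeq2 1.42.0, its size factors, other filters, the mouse as a block, 1 surrogate variable (sva 3.50.0), fits to the compared groups alone or without Rn45s, limma 3.58.1 on log2 of the normalized signal plus 1, and fits without each library and each mouse.

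Members and lists were chosen with earlier results of these data known. All members are named, and of the lists the 2 largest called rises and falls with iBET at a mean count of at least 50. A gene of the lists that met this rule is not reported here. Protein sequences were not used here.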

Additional observations from a re-analysis of the deposited data

How the results depend on the processing

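Called members moved with the setting as follows. With mice as blocks, edgeR and DESeq2 alike called 2 members for IC against Ova in DMSO, 3 for iBET against DMSO in Ova and 3 in IC, with no call changed in the other 2 contrasts. DESeq2 without the block called 2 in Ova, adding Mmp14, and 3 in IC, adding Mmp19. Mmp19 in IC was also called in edgeR with DESeq2 size factors, with at least 10 counts in every library and in a fit of the compared groups alone, at adjusted p of 0.0481, 0.0492 and 0.0245. At an adjusted p under 0.01, 0 were called in Ova and 1 in IC. Over the 12 fits without 1 library and the 3 without 1 mouse, 0 to 2 were called in Ova and 0 to 3 in IC. The ratio of summed Timp to summed Mmp became 0.948 in DMSO Ova, 1.27 in iBET Ova and 1.06 in iBET IC with the longest transcript as length.

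No called value changed sign in any fit. Values near 0 did. For iBET against DMSO in Ova, Mmp8 became -0.033 in DESeq2, -0.0029 with DESeq2 size factors, -0.053 and -0.094 with the replicate block in edgeR and DESeq2, -0.0085 in a fit of the compared groups alone and -0.12 in limma. In the same comparison Mmp9 became -0.0043 with DESeq2 size factors, -0.0017 and -0.030 with the block, and -0.016 in the compared groups alone. Timp2 for IC against Ova in DMSO became 0.0067 with 1 surrogate variable. Without 1 library or mouse, log2 changes of uncalled members crossed 0 within the ranges below. For IC against Ova in DMSO they were -0.41 to 0.16 for Mmp8, -0.27 to 0.23 for Mmp12, -0.46 to 0.22 for Mmp19, -0.45 to 0.90 for Timp1 and -0.15 to 0.011 for Timp2. For IC against Ova in iBET they were -0.15 to 0.55 for Mmp8, -0.016 to 0.56 for Mmp9, -0.20 to 0.39 for Mmp19 and -0.11 to 0.14 for Timp2. For iBET against DMSO in Ova they were -0.38 to 0.32 for Mmp8, -0.38 to 0.55 for Mmp9, -0.39 to 0.034 for Mmp12 and -0.036 to 0.17 for Timp2. For iBET against DMSO in IC they were -0.065 to 0.33 for Mmp12 and -0.36 to 0.60 for Timp1. For the interaction they were -0.054 to 0.65 for Mmp8, -1.02 to 0.020 for Mmp14, -0.0045 to 0.85 for Mmp19, -1.43 to 0.13 for Timp1 and -0.058 to 0.20 for Timp2. The cause of these shifts was not tested.

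With 3 mice the precision is set by the spread between them, and for Mmp8, Mmp9, Mmp14, Mmp19 and Timp1 also by counts that were under 30 in some libraries. When mouse A's DMSO Ova library, the one rich in Rn45s, was left out, the calls of Mmp19 in Ova (adjusted p = 0.0131) and of Mmp13 and Mmp14 in IC (0.00524 and 0.0179) were kept in edgeR, and Mmp19 was also called in IC (0.0455).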

Other observations

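Mmp17 and Mmp28, metalloproteinases chosen after their values were seen, had more counts with iBET. Mmp17, which encodes the membrane-anchored MT4-MMP, had 0 counts in all 3 DMSO Ova libraries and 13, 14 and 16 counts in iBET Ova. It had 0, 1 and 0 counts in DMSO IC and 27, 14 and 7 in iBET IC. Against a floor of 3 counts over the DMSO Ova group, its pooled level was at least 12.6-fold higher in iBET Ova. In IC, where DMSO had 1 count, the pooled ratio was 40.4 with a 95% counting interval of 6.91 to 1628, which covers counting error only. The bound in Ova and the ratio in IC are computed differently and give no comparison of the stimuli. Within each mouse and stimulus the iBET library held more counts than the DMSO library. Mmp28, which encodes epilysin, had 1, 5 and 7 counts in DMSO Ova and 14, 7 and 11 in iBET Ova. It had 1, 4 and 3 counts in DMSO IC and 26, 11 and 7 in iBET IC. These libraries differ in depth, and 1 count equals 0.514 CPM in mouse A's DMSO Ova library but 0.0772 CPM in its iBET Ova library. Scaled to library size, Mmp28 averaged 0.492 CPM in DMSO Ova, 1.03 in iBET Ova, 0.270 in DMSO IC and 1.10 in iBET IC. Both genes passed the filter on low counts through libraries of the iBET groups, so no test is given for them. Of 18 further Mmp and Timp genes only 4 passed the filter on low counts. Mmp27 was not called, and Mmp10 is given no test since it passed through libraries of the DMSO groups.

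The mice kept an order in several members. Mouse C had the lowest level of the 3 in all 4 groups for Mmp8, Mmp12, Mmp13, Mmp14 and Timp2, and it had the lowest in 3 of 4 groups for Mmp9. Averaged over the 4 libraries of a mouse, Mmp14 was 8.69 CPM in A, 8.06 in B and 2.96 in C, and Timp2 was 170 in A, 146 in B and 132 in C.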
